A study of Mus musculus with 6 samples.

Results

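The messages described here come from 5 genes that red blood cells and their precursors use to make hemoglobin. Hba-a1 and Hba-a2 encode the alpha chain of adult mouse hemoglobin, Hbb-bs and Hbb-bt encode its beta chain, and Alas2 encodes the erythroid form of 5-aminolevulinate synthase. The genes were listed by name, and all 5 had a row among the 12125 genes of the deposited table. The libraries came from kidney cells sorted with antibodies against CD29, a surface integrin, and against KFP, a red fluorescent reporter that is made once Cre recombinase has removed a stop cassette. The study's text does not say whether the sequenced cells carried both markers. There were 3 Trf1+/+ libraries and 3 Trf1flox/flox libraries. Mice of both genotypes carried the KFP reporter and Col1a2-CreERT2, a tamoxifen-dependent Cre under the promoter of the collagen gene Col1a2. Male and female animals were 6 to 8 weeks old when tamoxifen treatment began, and they were injected 3 times a week for 8 weeks. The sex of the animal behind a library is not given in the labels. Both genotypes were thus exposed to Cre and tamoxifen, and they differed in the floxed Trf1 allele. Each library was made from 500 cells, and the suspensions had passed through an erythrocyte lysis buffer before the sort.

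Hemoglobin is built from paired alpha and beta chains, each holding a heme group. Erythroid precursors transcribe the globin genes at very high levels, and reticulocytes and young red cells still carry globin mRNA after the nucleus is gone. Alas2 catalyzes the first step of heme synthesis in erythroid cells, whereas its paralog Alas1 does so in most other tissues, the kidney included.

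The alpha genes lie on chromosome 11, Hba-a1 (ENSMUSG00000069919) at chr11:32283511-32284465 and Hba-a2 (ENSMUSG00000069917) at chr11:32296489-32297298, both on the plus strand of GRCm38. The beta genes lie on chromosome 7, Hbb-bs (ENSMUSG00000052305) at chr7:103826534-103828096 and Hbb-bt (ENSMUSG00000073940) at chr7:103812524-103813996, both on the minus strand. Alas2 (ENSMUSG00000025270) lies at chrX:150547375-150570638 on the plus strand. All 5 are protein-coding. The coding sequences of the alpha genes, 426 bases each, differed at 1 base (99.8% identity), and those of the beta genes, 441 bases each, also at 1 base (99.8%). The stretches around these bases are printed below because they limit how reads can be divided between the copies. They run from coding base 361 to 401 in the alpha genes and from 397 to 437 in the beta genes, and the capital marks the base that differs within each pair.
Hba-a1: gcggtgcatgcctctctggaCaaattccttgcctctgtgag
Hba-a2: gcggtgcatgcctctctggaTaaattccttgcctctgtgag
Hbb-bs: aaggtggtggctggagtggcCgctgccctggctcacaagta
Hbb-bt: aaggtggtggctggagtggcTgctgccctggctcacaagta

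Outside the coding sequence the copies differed more. Of all windows of 75 bases in the transcript, the share also found in the partner gene was 62.2% for Hba-a1, 81.0% for Hba-a2, 64.3% for Hbb-bs and 56.6% for Hbb-bt. A read from such a window has more than 1 place to go, and counting programs of the kind used commonly leave such reads out. The split between the 2 genes of a pair is therefore uncertain, and the sum of a pair misses shared reads by an unknown amount. For Alas2, 12.1% of the windows were shared with Apex2, a DNA repair gene that overlaps it. The libraries were not stranded, so reads in the overlap cannot be assigned to either gene by strand.

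The messages of the 5 genes largely moved together over the libraries, and their promoters were compared as a description only. Whether promoter letters bear on that pattern was not tested. In the RefSeq windows of 300 bases around the start (GRCm38.p6, 250 bases before and 50 after), those of Hba-a1 and Hba-a2 were identical over 297 bases once shifted by 3. Motifs were searched on both strands. The CCAAT box and ATATAA were each found in the 4 globin windows and not in that of Alas2, and these letters occur in 37.4% and 9.82% of all 32851 windows. GATAA, the core of the site bound by GATA factors, was found in all 5 windows and in 25.4% of all windows. CCACACCC, the type of CACCC site known from beta globin promoters, was found in that of Hbb-bs and in 3.56% of all windows. CACCC, which is contained in it, was found in all 5 and in 57.5% of all windows. The 30 bases around the CCAAT box of each globin gene and around the GATAA match of Alas2 are given below, 5′ to 3′ along the gene, with motif letters on either strand in capitals. They lie at chr11:32283566-32283595 (+) for Hba-a1, chr11:32296383-32296412 (+) for Hba-a2, chr7:103827993-103828022 (-) for Hbb-bs, chr7:103813987-103814016 (-) for Hbb-bt and chrX:150547313-150547342 (+) for Alas2. These places are upstream of the RefSeq starts, but the GENCODE genes given above begin farther upstream, so that the stretches of Hba-a1 and Hbb-bs lie inside the GENCODE gene and that of Hbb-bt partly so.
Hba-a1: agagcaagcacaaaccagCCAATgagaact
Hba-a2: agagcaagcacaaaccagCCAATgagaact
Hbb-bs: gCCACACCCtggtaagggCCAATctgctca
Hbb-bt: gtaaCACCCtggcATTGGCCAATctgctca
Alas2: aggagactactttgctttTTATCtttagca

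A match of letters describes these windows and is not evidence of binding.

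The libraries held 10263382 to 12248797 reads on the listed genes. The values are normalized counts, in which the authors divided the reads of each gene by 1 size factor per library, and a single read was worth 0.689 to 1.09 normalized counts. From 8967 to 11593 genes per library were above 0. The library labelled Trf1+/+ replicate 1 had the smallest number, and its median gene stood at 13.4 normalized counts against 118 to 148 elsewhere. It also held 1 read of Terf1, the gene that encodes TRF1. The other Trf1+/+ libraries held 305 and 238 reads of Terf1, and the Trf1flox/flox libraries 128, 7 and 18. The 1 read in Trf1+/+ replicate 1 and the 128 in Trf1flox/flox replicate 1 are both at odds with the labels. Of the genes that were high elsewhere (cutoff 100 normalized counts), 12.9% were at 0 in Trf1+/+ replicate 1. In the remaining libraries this was 0.932% to 9.01%. The low Terf1 count therefore cannot decide the genotype of Trf1+/+ replicate 1. The groups are used as labelled. The defining genes of the labelled cell type mostly had no row. The study's text does not say how the listed genes were chosen, so a missing row does not show a missing message. Of 12 fibroblast genes, 10 had no row, among them Col1a1, Col3a1 and Pdgfrb, and the 2 with a row were Col1a2, which drives the Cre (0 to 1.78 normalized counts), and Dcn (0 to 97.3). All 10 proximal tubule genes and all 8 genes of other tubule segments had a row, with summed levels of 30893 to 155260 and 53739 to 154533 normalized counts per library.

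Globin messages were found in all 6 libraries, at levels that spread widely within each genotype. In Trf1+/+ replicates 1, 2 and 3, Hba-a1 stood at 124, 668 and 2237 normalized counts, and in Trf1flox/flox replicates 1, 2 and 3 at 13.7, 31.7 and 12286. Trf1flox/flox replicate 3 was the highest library and the other 2 of its group were the lowest, so that all Trf1+/+ values lay inside the Trf1flox/flox range. Hba-a2 had 105, 457 and 2927 in Trf1+/+ and 33.5, 15.3 and 13562 in Trf1flox/flox libraries. The order was that of Hba-a1 except that the 2 lowest libraries changed places. The group means were 1009 ± 1097 and 4110.5 ± 7080.2 (SD, n = 3 each) for Hba-a1, and 1163 ± 1537 and 4537 ± 7816 (SD, n = 3 each) for Hba-a2. In both genes the SD was larger than the mean in either genotype.

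Of the beta genes, Hbb-bs stood at 8.91, 717 and 4474 normalized counts in Trf1+/+ and at 73.9, 54.6 and 22803 in Trf1flox/flox libraries. The lowest value was here in the library labelled Trf1+/+ replicate 1, with 10 reads. Hbb-bt had 0, 38.1 and 795 in Trf1+/+ and 0, 184 and 3459 in Trf1flox/flox libraries. The 2 libraries at 0 came from different genotypes. By the counting of reads alone, a 0 allows up to 2.67 normalized counts (3 reads) in Trf1+/+ replicate 1. The limit is 2.58 in Trf1flox/flox replicate 1. Genes that were high elsewhere (cutoff 100 normalized counts) were also at 0 there, 12.9% and 3.68% of them respectively. A 0 therefore does not show that the level was below these limits. The group means were 1733 ± 2399.6 and 7644 ± 13128 (SD, n = 3 each) for Hbb-bs, and 278 ± 449 and 1214 ± 1946 (SD, n = 3 each) for Hbb-bt. Trf1flox/flox replicate 3 alone held between 77.3% and 81.1% of the normalized counts of each globin gene over the 6 libraries. It exceeded the next library, Trf1+/+ replicate 3, by 4.35-fold to 5.49-fold. In Trf1flox/flox replicate 3 the rank of Hbb-bs was 25 among all genes of the library, that of Hba-a2 was 44, that of Hba-a1 50 and that of Hbb-bt 283.

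For Alas2 the normalized counts were 0, 270.1 and 39.4 in Trf1+/+ and 0, 0 and 293 in Trf1flox/flox libraries. The 2 highest values, those of Trf1+/+ replicate 2 and Trf1flox/flox replicate 3, differed by 1.08-fold and came from different genotypes. By the counting of reads alone, the libraries at 0 allow up to 2.67 normalized counts in Trf1+/+ replicate 1. The limits are 2.58 and 3.28 in Trf1flox/flox replicates 1 and 2. In Trf1flox/flox replicate 2, 9.01% of the genes that were high elsewhere were at 0, so these limits do not cap the level either. The means were 103 ± 146 and 97.6 ± 169 (SD, n = 3 each). Alas2 thus had reads in the 3 libraries with the most globin and in no other. Its order among these 3 was not that of the globins, since Trf1+/+ replicate 3 had more of every globin than Trf1+/+ replicate 2 but less Alas2. These are bulk libraries, in which more cells of a type and more RNA per cell cannot be told apart.

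**Figure D1:**
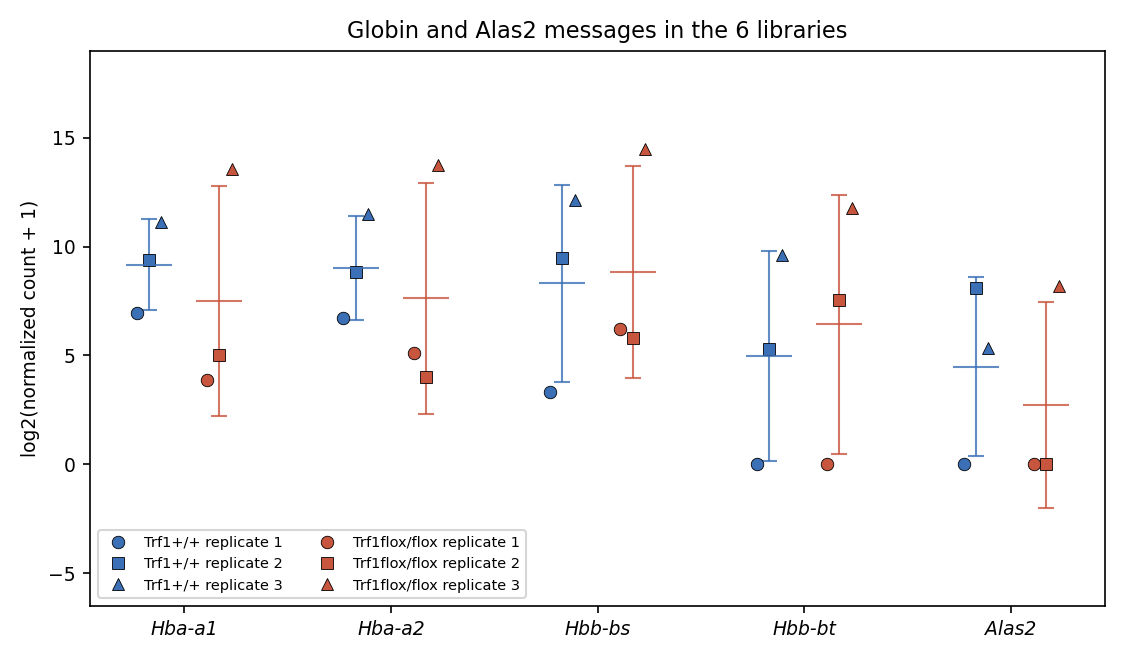
Each point is 1 library, placed by gene on the horizontal axis and by log2(normalized count + 1) on the vertical axis, with the group mean as a dash and its SD as a bar (n = 3 libraries). Trf1flox/flox replicate 3 is the highest for all 5 genes, and the 2 genotypes overlap for each gene.

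Summed over the 4 globin genes, the normalized count was 238, 1880.0 and 10432 in Trf1+/+ and 121, 285 and 52109.7 in Trf1flox/flox libraries. As a share of the reads on listed genes this was 0.00218% (95% exact binomial interval 0.00193 to 0.00246), 0.0193% (0.0185 to 0.0201) and 0.103% (0.101 to 0.105) in Trf1+/+ replicates 1, 2 and 3. In Trf1flox/flox libraries it was 0.00134% (0.00113 to 0.00158), 0.00231% (0.00204 to 0.00261) and 0.737% (0.732 to 0.742). The intervals cover counting error only, since the reads were amplified by PCR and carry no molecular identifiers. The spread between libraries of 1 genotype was far larger than these intervals. On the log2 scale of the sum plus 1, the Trf1flox/flox mean was 0.45 below the Trf1+/+ mean, with a pooled within-group SD of 3.86. The direction depended on the summary. The mean of the untransformed sums was 4.18-fold higher in Trf1flox/flox, whereas the median was 6.59-fold higher in Trf1+/+ libraries. Without Trf1flox/flox replicate 3 the log2 difference was -3.16, and without Trf1flox/flox replicate 1 it was 1.21.

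The balance of the chains was compared per kb of exon. The ratio of alpha to beta normalized counts per kb was 26.7, 1.53 and 1.03 in Trf1+/+ replicates 1, 2 and 3 and 0.698, 0.186 and 1.02 in Trf1flox/flox replicates 1, 2 and 3. On this scale the 2 libraries with the most globin, 1 of each genotype, were both close to equal. Trf1+/+ replicate 2 departed from equality on 2269 globin reads, and the other 3 libraries, which departed too, had 141 to 267 globin reads. In the library labelled Trf1+/+ replicate 1 the beta chains rested on 10 reads against 257 for alpha. The share of alpha among globin reads was 96.3% there (95% exact interval 93.2 to 98.2), and it was 16.5% (12.2 to 21.5) in Trf1flox/flox replicate 2, which had 43 alpha and 218 beta reads. These intervals cover the counting of reads only, and the number of molecules behind so few reads is not known. Each Trf1+/+ ratio was above each Trf1flox/flox ratio, but the values that adjoin, 1.03 and 1.02, belong to the libraries with the most globin. As shares of reads, with no scaling by length, alpha made up 49.5% and 49.6% in these 2 libraries and the groups overlapped. The ratio was not tested between genotypes.

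**Figure D2:**
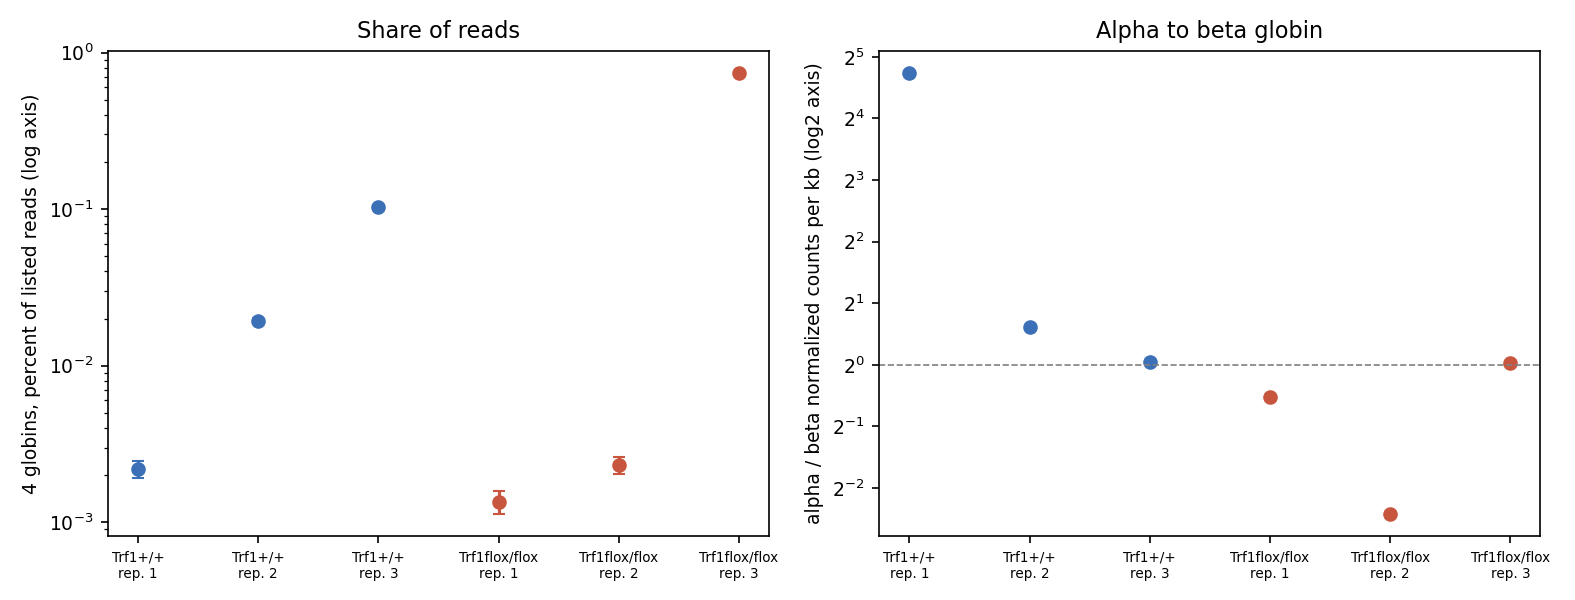
Left, the 4 globin genes as a percent of reads on listed genes in each library (log axis, with 95% exact binomial intervals). Right, the ratio of alpha to beta normalized counts per kb of exon (log2 axis, with a dashed line at equality), which is 1.03 and 1.02 in the third replicate of each genotype and from 0.186 to 26.7 in the others.

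Within the beta pair, Hbb-bt per kb stood at 0, 0.0581 and 0.194 times Hbb-bs in the Trf1+/+ libraries and at 0, 3.67 and 0.166 times in the Trf1flox/flox libraries. Trf1flox/flox replicate 2 was the only library with more Hbb-bt than Hbb-bs, and there 77.1% of the beta reads (95% exact interval 70.9 to 82.5) were assigned to Hbb-bt, against 15.1% and 13.2% in the libraries with the most globin. Within the alpha pair, Hba-a2 per kb stood at 1.03, 0.834 and 1.59 times Hba-a1 in Trf1+/+ and at 2.97, 0.588 and 1.34 times in Trf1flox/flox libraries. No library was beyond 3-fold for the alpha pair. The near-identical coding stretches printed above apply to both splits. Per kb, Alas2 reached 45.0, 1.16 and 1.74 per 1000 of globin in Trf1+/+ replicates 2 and 3 and in Trf1flox/flox replicate 3, so that its ratio to globin was far higher in Trf1+/+ replicate 2 than in the other libraries that contained it.

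The genotypes were compared with limma on log2(normalized count + 1) over the 9966 genes that reached 10 normalized counts in 3 or more libraries, a filter that all 5 genes passed. At an adjusted p under 0.05, 0 of the 5 genes were called, against 0% of all tested genes. At an unadjusted p under 0.05 none of the 5 passed, against 454 genes (4.56%), and none had groups that did not overlap, against 865 genes (8.68%). The log2 fold change, Trf1flox/flox minus Trf1+/+, was -1.66 (standard error 2.75) for Hba-a1 and -1.41 (2.81) for Hba-a2. It was 0.53 (3.19) for Hbb-bs, 1.45 (3.65) for Hbb-bt and -1.74 (3.01) for Alas2. Each fold change was smaller than its standard error, with an adjusted p of 0.996 from limma for all 5. The median over all tested genes was 0.20, and 0.44 after scaling to the same upper quartile.

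The spread of these genes between libraries of 1 genotype was wide. The pooled within-group SD on the log2 scale was 4.03 for Hba-a1, 4.12 for Hba-a2, 4.71 for Hbb-bs, 5.42 for Hbb-bt and 4.43 for Alas2, against a median of 2.17 over all tested genes. Between 95.2% and 99.97% of the tested genes had a smaller SD. The sign of each fold change rested on single libraries. Without Trf1flox/flox replicate 3, all 5 were negative, from -4.70 for Hba-a1 (unadjusted p = 0.0287 and adjusted p = 0.904 from limma) to -1.21 for Hbb-bt. Without the library labelled Trf1+/+ replicate 1, they were negative as well, from -3.98 for Alas2 to -1.04 for Hbb-bt. Hba-a1 was at 0.15 without Trf1flox/flox replicate 1, Hba-a2 at 0.39 without Trf1flox/flox replicate 2, and Alas2 at 0.06 without Trf1+/+ replicate 2. In edgeR's quasi-likelihood test on the recovered reads the 4 globin genes were at 2.07 to 2.24 and Alas2 at -0.02, again with none called.

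**Figure D3:**
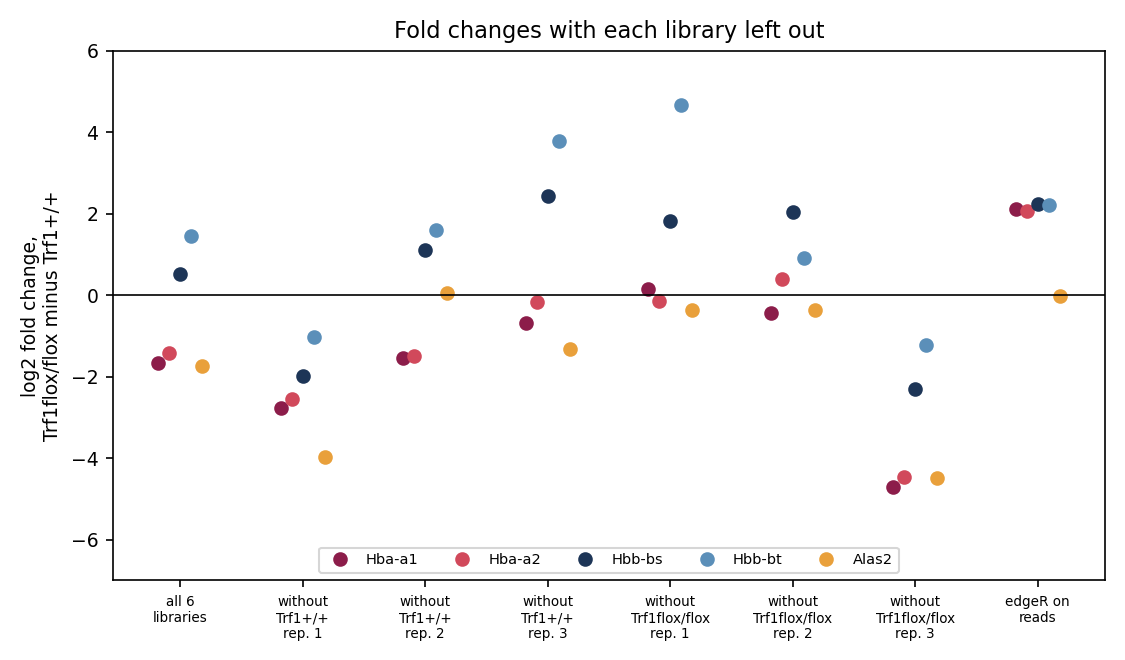
The vertical axis is the log2 fold change, Trf1flox/flox minus Trf1+/+, of each of the 5 genes from limma with all 6 libraries, with each library left out, and from edgeR on the recovered reads. All 5 genes are below 0 without Trf1flox/flox replicate 3 and without Trf1+/+ replicate 1, and the 4 globin genes are above 2 in edgeR.

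The 5 genes varied together over the libraries to different degrees. Over the 6 libraries, Pearson's r of the log2 values was 0.98 between the alpha genes and 0.84 between the beta genes, and the lowest among the 10 pairs was 0.67, between Hbb-bt and Alas2. These values describe 6 libraries, in which all genes share the depth of the library and the number of genes above 0 ran from 8967 to 11593. The genes of each pair also share sequence. The genes most like the mean log2 value of the 4 globins, apart from Hbb-bs itself, were G0s2, an inhibitor of lipolysis, and Pllp (r = 0.97 each), then Pus7, Odf2 and Ppa2 (r = 0.96 each). G0s2 stood at 0, 13.3 and 229.6 in Trf1+/+ and at 0, 0 and 258 in Trf1flox/flox libraries. Most like Alas2 were Ogfr (r = 1.00), Sppl2b, Fbxo28, Tyw5 and Ppard (r = 0.99 each). All these are the highest of 9966 tested genes, and how many others come near was not counted. Alas2 was at 0 in 3 of the 6 libraries, which favors genes at or near 0 in the same 3. Ogfr had 0, 44.7 and 14.8 in Trf1+/+ and 0, 0 and 54.4 in Trf1flox/flox libraries, and it was thus at 0 in the same 3 libraries as Alas2.

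Many other red cell genes had no row, which does not show that their messages were missing. Of 38 further genes of red cells and their precursors, 25 had no row in the table, among them Epb42, Ank1, Gata1, Ahsp and Hemgn, and so did all 14 other globin genes looked for. Of the 13 that had a row, 11 were tested and none was called. In Trf1flox/flox libraries 4 were at higher and 7 at lower values, against 5571 and 4395 of all 9966 tested genes. The median log2 fold change of the 11 was -0.08, against 0.20 over all tested genes. The sign of this median changed with upper quartile scaling (0.20) and without Trf1+/+ replicate 1 (0.30), Trf1+/+ replicate 3 (0.31) or Trf1flox/flox replicate 1 (0.17). The most abundant of them, Prdx2 (a peroxiredoxin), Bnip3l (a mitophagy receptor) and Tfrc (the transferrin receptor), are made by many cell types. Their values were 1738 to 5134 for Prdx2, 612 to 2094 for Bnip3l and 310.2 to 1288 for Tfrc. Bnip3l was the only one of the 11 tested genes whose groups did not overlap, against 8.68% of all tested genes, with 952 to 2094 in Trf1+/+ and 612 to 859 in Trf1flox/flox libraries. The smallest unadjusted p were those of Tspan33, Aqp1, the water channel of red cells and of the proximal tubule, and Bnip3l. The fold change of Tspan33 was 1.97 on the log2 scale (standard error 0.95, adjusted p = 0.996 from limma).

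Other listed red cell genes followed the globins to different degrees. Pearson's r with the mean log2 value of the 4 globins was 0.32 for Slc4a1, 0.89 for Sptb and -0.43 for Klf1. Slc4a1, the anion exchanger of the red cell membrane and of kidney intercalated cells, stood at 0.891, 250.2 and 0.985 in Trf1+/+ and at 0, 1742 and 365 in Trf1flox/flox libraries, with its highest value in a library of few globin reads. Sptb, the beta spectrin of the red cell skeleton, had 0, 0.829 and 1.97 in Trf1+/+ and 0, 0 and 40.0 in Trf1flox/flox libraries, the last being the library with the most globin. Klf1, the transcription factor of globin genes, had 0, 0.829 and 0.985 and 61.9, 0 and 0, with its highest value in the library with the least globin. Sptb and Klf1 did not pass the filter on low values. These 3 genes were singled out after their values were seen.

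**Figure D4:**
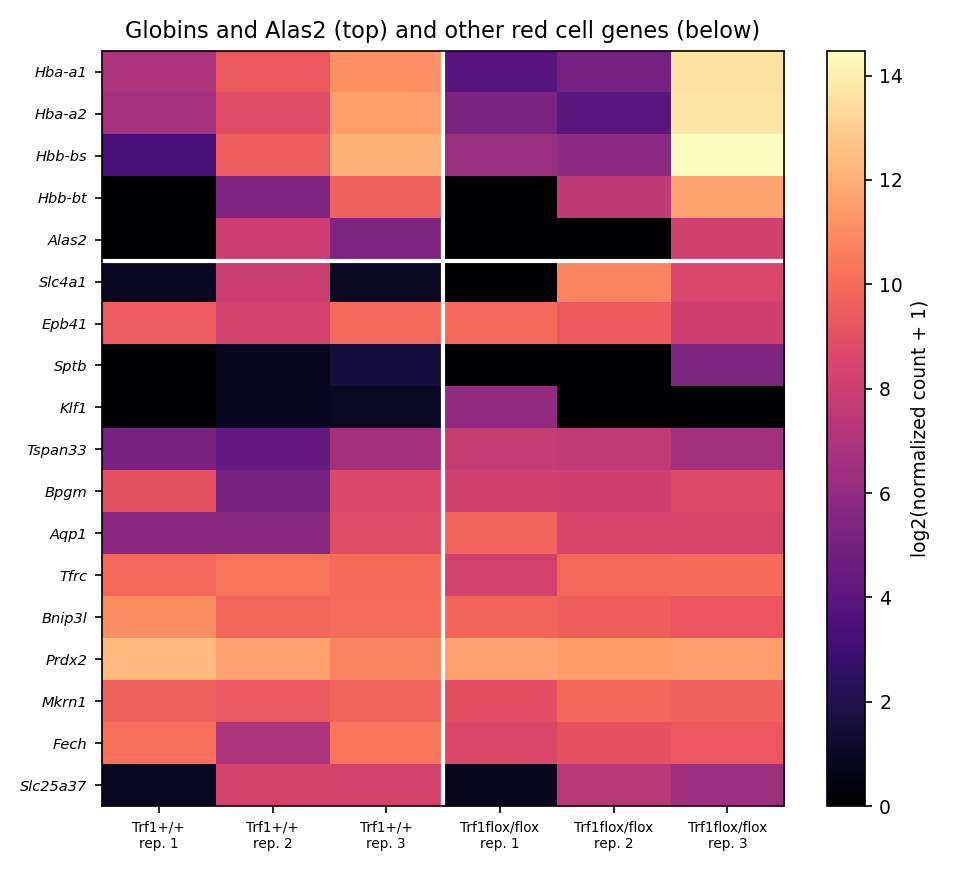
Rows are genes, columns are libraries, and color gives log2(normalized count + 1), with the 5 globin and heme genes above the horizontal white line and the 13 other listed red cell genes below it. The brightest cells of the upper block are in Trf1flox/flox replicate 3, and genes such as Prdx2 and Tfrc below the line are bright in all 6 libraries.

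Most genes of heme synthesis had reads in each library, and 14 of 17 were above 3 reads in all 6. The exceptions were Ppox, at 0 in Trf1+/+ replicate 1, Abcb10, at 1.09 normalized counts in Trf1flox/flox replicate 2, and Slc25a37. Alas1, the form of the first enzyme outside the erythroid lineage, stood at 1206, 1672 and 2806 normalized counts in Trf1+/+ and at 276, 1967 and 2153 in Trf1flox/flox libraries. The groups overlapped, with a log2 fold change of -0.76 (standard error 1.09, adjusted p = 0.996 from limma). Per kb of exon, Alas1 stood above Alas2 in all 6 libraries, from 44.7 to 455 against 0 to 122. All 17 genes of the heme synthesis list were tested, and none was called. In Trf1flox/flox libraries 3 were at higher and 14 at lower values, against 5571 and 4395 of all 9966 tested genes. This split was not tested, nor compared with genes of similar level. Over all tested genes the median was 0.20, and that of this list was -0.48. This median lay between -0.58 and -0.20 over the alternatives, the latter without Trf1+/+ replicate 1. The most abundant of the list were Slc25a39, a mitochondrial glutathione carrier, at 3482 to 5478 normalized counts, Pgrmc1, a heme-binding membrane protein, at 1497 to 3685, and Alas1. Among the smallest unadjusted p were those of Ppox, an oxidase late in the pathway, at 2.14 on the log2 scale (standard error 2.31), and Urod, a decarboxylase of the middle steps, at -0.78 (0.92). Slc25a37, the mitoferrin that supplies iron to erythroid mitochondria, had 0.891, 312 and 312 in Trf1+/+ and 0.859, 169 and 86.1 in Trf1flox/flox libraries.

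Of 16 genes of heme breakdown, transport and sensing, 12 had a row and 10 were tested. In Trf1flox/flox libraries 3 of these were at higher and 7 at lower values, against 5571 and 4395 of all 9966 tested genes. None of the 10 was called, and their median was -0.47. It lay between -0.91 (without Trf1+/+ replicate 3) and 0.07 (without Trf1+/+ replicate 1) over the alternatives. The groups did not overlap for 2 of the 10 tested genes, against 8.68% of all tested genes. Eif2ak1, the heme-regulated kinase of translation, stood at 771, 747 and 535 normalized counts in Trf1+/+ and at 101, 376 and 203 in Trf1flox/flox libraries. It was 1 of these 2 genes, and its log2 fold change was -1.77 (standard error 0.85, adjusted p = 0.996 from limma). Nr1d1, a nuclear receptor that binds heme, had 566, 324 and 434 in Trf1+/+ and 178, 318 and 53.7 in Trf1flox/flox libraries and was the other (log2 fold change -1.56, standard error 0.95, adjusted p = 0.996 from limma). The most abundant were Abcg2, an exporter of porphyrins and other substrates, at 324 to 2382, Slc48a1, a heme transporter, at 230.3 to 1471, and Hmox2, the constitutive heme oxygenase, at 442 to 1976. Hmox1, the inducible heme oxygenase, had 24.9, 57.2 and 0 in Trf1+/+ and 0, 7.65 and 116 in Trf1flox/flox libraries.

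**Figure D5:**
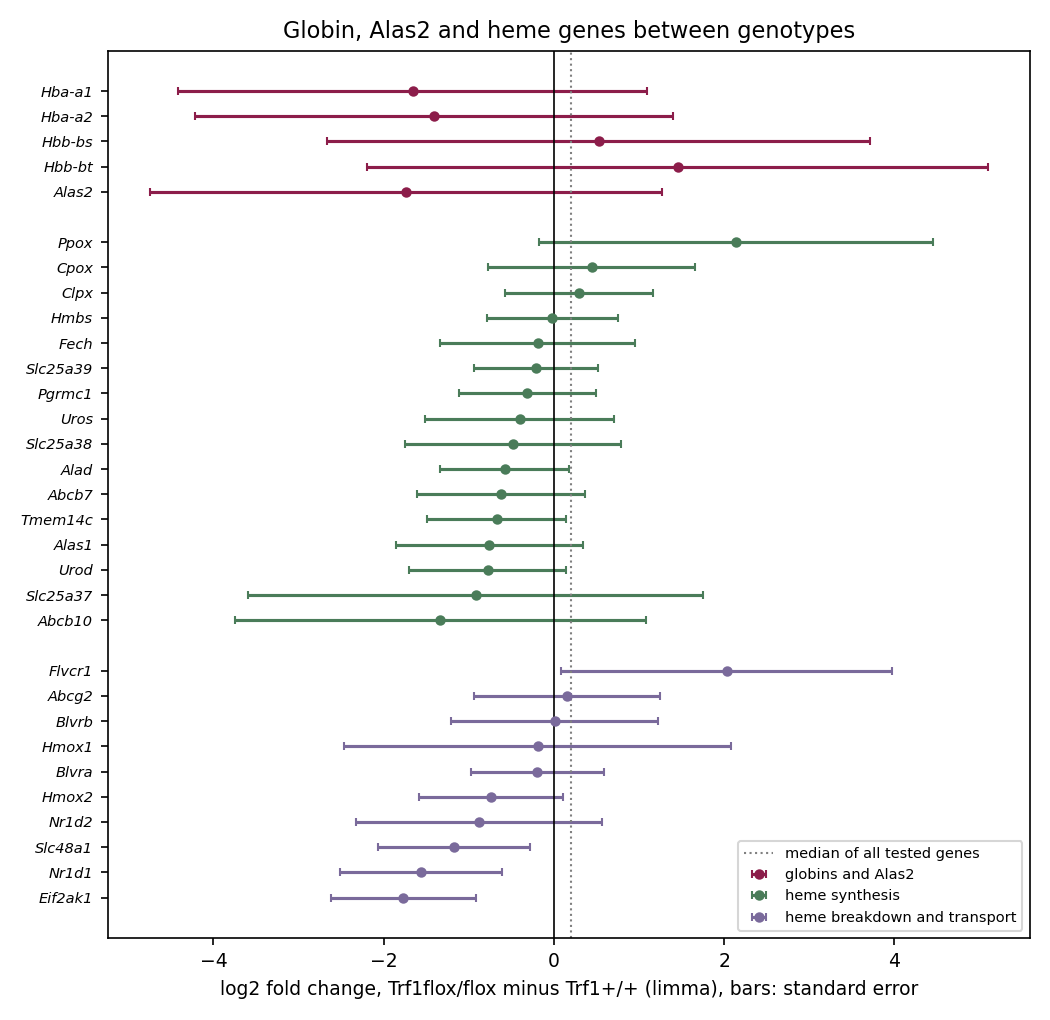
Points are log2 fold changes, Trf1flox/flox minus Trf1+/+, from limma, with their standard errors as bars, for the 5 globin and Alas2 genes, 16 of the heme synthesis genes and the 10 tested genes of heme breakdown and transport. The bars of Hba-a1, Hba-a2, Hbb-bs, Hbb-bt and Alas2 are from 2.75 to 3.65 long on each side and cross 0, and the dotted line is the median of all tested genes, 0.20.

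Few genes of other blood cells had a row, and a missing row is not the same as a count of 0. None of the 6 genes that all leukocytes share, Ptprc among them, had a row. Of the platelet list 3 of 10 genes had a row, with summed levels of 11.8 to 814 normalized counts in Trf1+/+ and 1.72 to 68.8 in Trf1flox/flox libraries. Pf4, the tested one, had 146, 297 and 0 in Trf1+/+ and 0.859, 0 and 23.4 in Trf1flox/flox libraries. Of the neutrophil list 1 of 10 genes had a row, Ltf, at 7.46 to 13.8 and 13.1 to 28.9, and of the macrophage list 5 of 10 did, summing to 11.6 to 578 and 8.59 to 268, with C1qb at 0 in all libraries and Mrc1 tested and not called. Lyz2 and C1qc had reads in Trf1+/+ replicate 2 alone, at 377 and 188. Csf1r, the receptor of a macrophage growth factor, had 0, 2.49 and 279.8 in Trf1+/+ and 0, 260.1 and 0 in Trf1flox/flox libraries. Of the lymphocyte list 2 of 14 genes had a row. Igkc, an immunoglobulin light chain gene that was not tested, had 73.7 in Trf1+/+ replicate 2 and 0 in the other 5 libraries. Trac, the constant part of the T cell receptor alpha chain, had 0, 0 and 0 in Trf1+/+ and 172, 216 and 61.3 in Trf1flox/flox libraries, with an adjusted p of 0.110 from limma. It was highest in a library with few globin reads. Of the endothelial list 1 of 8 genes, Pecam1, had a row, at 0.859 to 12.0 normalized counts. In Trf1flox/flox replicate 3, the library with the most globin, the platelet and macrophage sums were 24.1 and 9.65 normalized counts. The neutrophil sum there was 28.9, from Ltf alone and the highest of the 6 libraries, and the lymphocyte sum was 61.3, from Trac alone. Each sum rests on the few genes that had a row. The part of other blood cells in the globin values was not tested.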

How the data were processed

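Libraries of 500 sorted cells were made with oligo(dT) priming, template switching and PCR, without strand. Per the study's methods, poly(A) tails were trimmed and reads aligned to GRCm38 with TopHat 2.0.10, set to a stranded library type with reads of several placements allowed, and counted with HTSeq-count 0.6.1 on GENCODE genes. The submitters' processing notes name GRCm39 instead, and coordinates here are those of GRCm38 (GENCODE vM21). The authors deposited 1 table of normalized counts, a signal per gene of reads divided by a size factor. All values (100%) were whole multiples of 1 read within 0.001 reads, so reads were recovered. Depth was 10263382 to 12248797 listed reads per library.

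Groups follow the genotype labels, with replicates numbered in accession order and pairing no animals. Genes were tested with limma 3.58.1 on log2(normalized count + 1), over genes that reached 10 normalized counts in 3 or more libraries, with Benjamini-Hochberg adjustment over all of them. Alternatives were edgeR 4.0.16, DESeq2 1.42.0, upper quartile scaling, pseudocounts of 0.1 and 10, no filter, a trended robust prior, and each library left out. The test code was tested on simulated data. The p-values from limma weigh the genotype difference against the spread within genotypes of these 6 libraries, with variances moderated across genes. All 5 genes were named. Of each list, called genes were named, otherwise the 3 tested genes with the smallest p and the 3 with the highest mean (other named genes were chosen after their values were seen), and the 5 genes most correlated with the globins and with Alas2. Only a range is given for tubule genes, and 1 gene the rule names is not reported here. The genes and lists were chosen with earlier results of these data known.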

Additional observations from a re-analysis of the deposited data

How the results depend on the processing

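None of the 5 genes was called under any alternative run (adjusted p from 0.842 to 1.00; DESeq2 gave none for Hba-a2 and Hbb-bs), but the sign of every fold change depended on the setting. On recovered reads, Hba-a1 was at 2.13 in edgeR and 2.03 in DESeq2, and Hba-a2 at 2.07 and 1.97, in place of -1.66 and -1.41. When libraries were dropped singly, the log2 fold change ranged from -4.70 to 0.15 for Hba-a1, -4.46 to 0.39 for Hba-a2, -2.30 to 2.44 for Hbb-bs, -1.21 to 4.67 for Hbb-bt and -4.47 to 0.065 for Alas2 (the last without Trf1+/+ replicate 2). The log2 difference of the summed globin level ranged from -3.16 to 1.21 around its value of -0.45, so its sign changed as well. These values lay within 1 pooled within-group SD (3.86), which is too wide to show that the difference is stable. The count of called genes over the whole table was 0 in limma and in edgeR (454 and 196 at an unadjusted p under 0.05), 58 in DESeq2 (410 unadjusted) and 8 with a pseudocount of 0.1, and 0 whichever library was dropped. Trac was called in DESeq2 (adjusted p = 0.00692) and with the pseudocount of 0.1 (adjusted p = 0.0420). No paired analysis was possible because the labels give no replicate numbers. Values rest on few reads in Trf1+/+ replicate 1 and in Trf1flox/flox replicates 1 and 2, with 141 to 267 globin reads each, and a difference between near-identical copies is uncertain at any depth. The cause of the changes in sign was not tested.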
